A study of Mus musculus with 4 samples.

Results

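The 43 genes described here are cell cycle and mitosis genes, chosen by symbol from the 23282 gene rows of the deposited count tables. All 43 were found, each on 1 row. They were kept in 3 groups by role: 7 cyclins and kinases of the G1 phase, 12 genes of DNA replication and 24 genes of mitosis. RNA came from explanted dorsal root ganglia, in which sensory neurons sit among glia beside the spinal cord, of C57BL/6 mouse embryos at embryonic day 13. All cultures were moved from growth medium to myelination medium before any stimulation. ES cultures were electrically stimulated at 10 days in vitro (DIV; 20 Hz, 50 mV/mm, 1 h), and control cultures were not. RNA was taken at 11 or 19 DIV and pooled from 3 explants per library, which gave 4 libraries: ES at 11 DIV, control at 11 DIV, ES at 19 DIV and control at 19 DIV. Each group was 1 library, so no difference between 2 libraries had a replicate check.

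Dividing cells pass through G1, in which D-type cyclins with Cdk4 and E-type cyclins with Cdk2 free the E2F transcription factors from the retinoblastoma protein. E2F factors switch on the genes that license and copy DNA, and a later wave of genes, read through the MuvB complex, builds the spindle and drives chromosome segregation. Neurons of the ganglion have left the cycle by this stage, whereas Schwann cell precursors, other glia and fibroblasts can still divide. In explants the RNA of all these cells was mixed, so fewer dividing cells and less RNA per dividing cell cannot be told apart.

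The libraries held 5782834 to 7830950 reads, made from 3′ ends of transcripts, so counts were not divided by gene length. Values below are CPM (counts scaled to library size) after scaling by TMM, a scaling that assumes most genes are equal. Reads came in clumps, and 2602 rows paired a library at 0 reads with another at over 200. From the zeros among genes expected at 200 to 1000 reads, 1 sampled molecule stood for an estimated 104 to 158 reads, if every zero is taken as sampling. Intervals in parentheses are therefore 95% spread-adjusted intervals, exact binomial intervals on counts divided by the observed spread between the 2 libraries (208 to 258 times counting error). They describe 2 libraries, not conditions. Intervals of sums used the same spread, estimated from single genes averaging 500 to 3000 reads. They assume that the summed genes vary independently and that the spread does not grow with the count, so they may be too narrow. A gene was called by the size rule when its ratio was 2-fold or more, its plain counting interval left out 1 and its higher library held 50 reads or more, and by the spread-adjusted rule when a 99% spread-adjusted interval excluded equality as well.

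Reads of cell cycle genes were present in all 4 libraries, and the interval of their total included equality on both days. The total was 4827 CPM in ES and 5605 CPM in control at 11 DIV (ratio 0.861, 0.680 to 1.09), and 5634 CPM in ES and 5102 CPM in control at 19 DIV (1.10, 0.887 to 1.38). The proliferation marker Mki67 had 703 and 607 reads in ES and control at 11 DIV and 302 and 466 reads at 19 DIV, and Top2a, the topoisomerase of dividing cells, had 1765 and 1364 reads at 11 DIV and 2101 and 2591 reads at 19 DIV. Of the 43 genes, 32 had reads in every library, 24 had at least 50 in every library and only 7 at least 500. In 10 genes a library with over 200 reads stood beside one with 0.

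**Figure D1:**
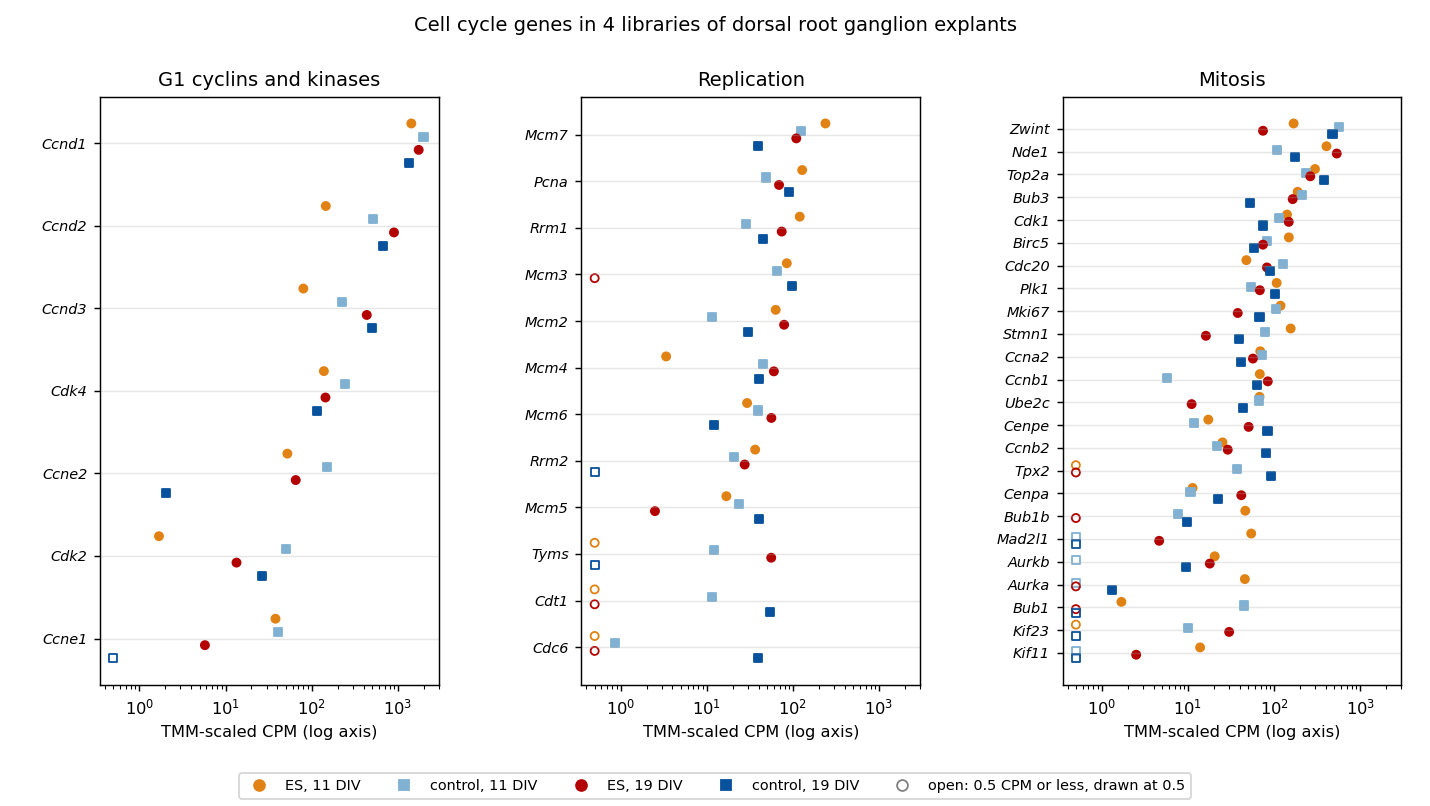
TMM-scaled CPM of each of the 43 genes (log axis) in the 4 libraries, with circles for ES and squares for control and 1 library per symbol; open symbols are values of 0.5 CPM or less, drawn at 0.5. Ccnd1 is the most abundant G1 gene in every library (1340 to 1984 CPM), and the genes at the bottom of each panel scatter most.

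Called genes were about as frequent among the cell cycle genes as among all genes. At 11 DIV, 10 members were higher and 12 lower in ES among the 42 that met the read minimum, against 28.9% of all genes higher and 29.6% lower by the size rule. At 19 DIV, 9 were higher and 10 lower in ES among 38, against 29.4% and 31.3% of all genes. Between days, 8 members were higher and 12 lower at 19 DIV among 39 in ES cultures (all genes 30.9% and 30.5%), and 10 higher and 10 lower among 40 in control cultures (30.9% and 29.8%). The median log2 difference of the 43 genes was 0.08 for ES minus control at 11 DIV and 0.35 at 19 DIV, and for 19 minus 11 DIV it was -0.18 in ES cultures and -0.14 in control cultures. Over all genes averaging 10 reads or more, the median was 0 in each comparison. By the spread-adjusted rule 2 calls were made: Zwint, lower in ES at 19 DIV, and Ccnd2, higher at 19 DIV in ES cultures. At 11 DIV, 0 members passed it in either direction, against 0.102% of all genes higher and 0.214% lower in ES. At 19 DIV, 0 were higher and 1 lower, against 0.13% and 0.13%. For 19 against 11 DIV, 1 was higher and 0 lower in ES cultures, against 0.162% and 0.263%, and 0 and 0 in control cultures, against 0.16% and 0.459%.

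The groups differed in which way their sums lay. G1 genes summed to 1889 CPM in ES and 3201 CPM in control at 11 DIV, a ratio of 0.590 (0.413 to 0.837), and to 3310 CPM in ES and 2656 CPM in control at 19 DIV, a ratio of 1.25 (0.925 to 1.69). Replication genes summed to 721 CPM in ES and 430.0 CPM in control at 11 DIV (ratio 1.68, 0.784 to 3.75) and to 534 CPM and 488.5 CPM at 19 DIV (1.09, 0.517 to 2.36). Mitosis genes summed to 2218 CPM in ES and 1973 CPM in control at 11 DIV (1.12, 0.771 to 1.64) and to 1790 CPM and 1958 CPM at 19 DIV (0.914, 0.627 to 1.34). The replication and mitosis intervals included equality on both days. Without Zwint, its most abundant gene, the mitosis ratio at 19 DIV turned to 1.16, without Zwint and Nde1 it was 0.904, and without Mcm7 the replication ratio at 19 DIV turned to 0.946. Between 19 and 11 DIV the G1 ratio was 1.75 (1.22 to 2.56) in ES and 0.830 (0.601 to 1.145) in control cultures, the replication ratio 0.742 (0.352 to 1.56) and 1.14 (0.483 to 2.76), and the mitosis ratio 0.807 (0.542 to 1.21) and 0.992 (0.669 to 1.48).

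**Figure D2:**
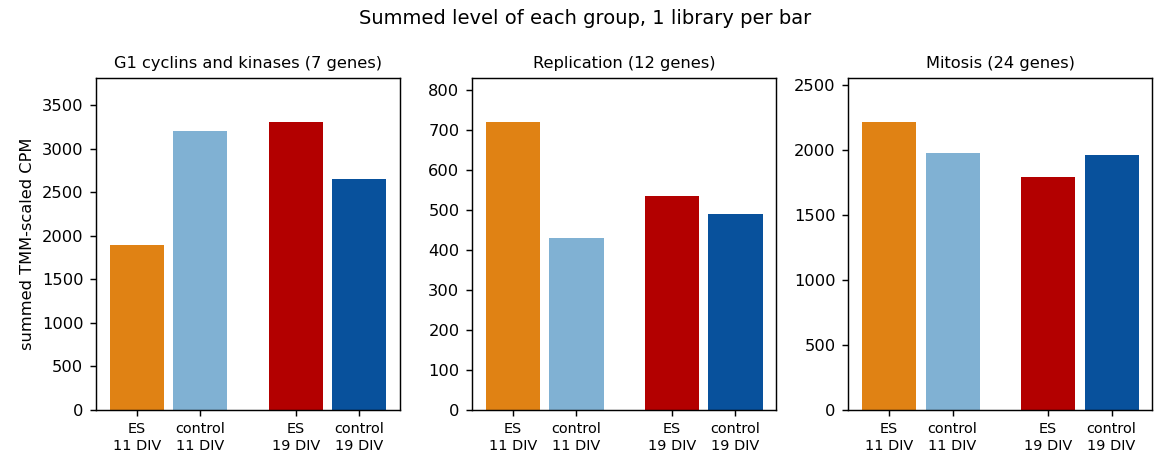
Summed TMM-scaled CPM of the 7 G1 genes, the 12 replication genes and the 24 mitosis genes, 1 bar per library and no error bars, since each group is 1 library. ES at 11 DIV has the lowest G1 sum (1889 CPM) and the highest replication sum (721 CPM).

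Promoters of replication and mitosis genes are known for particular short elements, and 4 are shown: those of Zwint and Nde1, on which the results below turn, Cdk1 for the mitotic kinases and Mcm7 for the replicative helicase. The sequences are the 250 bases before the RefSeq start on GRCm38.p6, 5′ to 3′ on the gene's strand: chr10:72654596-72654845 for Zwint and chr16:14163025-14163274 for Nde1, both on the plus strand, and chr10:69352913-69353162 for Cdk1 and chr5:138171884-138172133 for Mcm7, both on the minus strand. Capitals mark exact matches on either strand to CCAAT (the box bound by NF-Y; ATTGG on the other strand), TTTGAA (the CHR element of MuvB targets; TTCAAA) and TTCCCGC (a form of the E2F site; GCGGGAA). None of the marked matches overlap.
Zwint: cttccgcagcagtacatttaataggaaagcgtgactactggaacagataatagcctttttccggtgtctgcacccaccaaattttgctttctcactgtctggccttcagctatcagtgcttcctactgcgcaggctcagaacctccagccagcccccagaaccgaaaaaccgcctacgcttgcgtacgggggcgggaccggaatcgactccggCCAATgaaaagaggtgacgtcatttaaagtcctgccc
Nde1: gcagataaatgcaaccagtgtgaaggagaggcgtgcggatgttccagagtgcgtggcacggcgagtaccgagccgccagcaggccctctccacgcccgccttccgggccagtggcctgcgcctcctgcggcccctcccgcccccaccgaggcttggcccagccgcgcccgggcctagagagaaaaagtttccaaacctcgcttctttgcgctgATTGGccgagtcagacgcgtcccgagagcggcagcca
Cdk1: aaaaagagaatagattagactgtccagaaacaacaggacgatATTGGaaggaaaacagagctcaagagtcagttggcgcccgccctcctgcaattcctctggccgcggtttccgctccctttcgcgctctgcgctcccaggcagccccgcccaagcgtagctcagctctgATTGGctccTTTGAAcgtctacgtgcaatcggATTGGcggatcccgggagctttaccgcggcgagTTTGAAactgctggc
Mcm7: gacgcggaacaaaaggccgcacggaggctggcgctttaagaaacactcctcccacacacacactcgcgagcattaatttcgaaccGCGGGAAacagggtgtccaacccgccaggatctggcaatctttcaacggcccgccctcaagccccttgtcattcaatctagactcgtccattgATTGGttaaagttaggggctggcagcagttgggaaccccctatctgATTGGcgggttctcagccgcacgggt

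Zwint and Nde1 each held 1 CCAAT box, with its first base 37 bases before the start, and no exact match to TTTGAA or TTCCCGC. Other forms of these elements were not searched. Cdk1 held 3 CCAAT boxes and 2 CHR elements, and Mcm7 held 2 CCAAT boxes and 1 E2F site in the window shown. RefSeq promoters were matched for 35 of the 43 genes, 38 promoters in all. CCAAT was in 90.5% of the 21 mitosis promoters and 75% of the 12 replication promoters, against 33.8% of all 32851 promoters. TTTGAA was in 42.9% of mitosis and 8.33% of replication promoters, against 16% of all. TTCCCGC was in 4 of 12 replication promoters (33.3%; Cdc6, Mcm7 at both of its starts, and Rrm1) and in 0 of 21 mitosis promoters, against 3.82% of all. A match describes the letters and not binding.

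Zwint was lower and Nde1 higher by the size rule in ES on both days. Zwint encodes an outer kinetochore protein that recruits the checkpoint motor complex, and also binds SNAP25, a vesicle fusion protein of neurons. It is a protein-coding gene on chromosome 10 (72654845 to 72674964 in GRCm38). Zwint had 997 reads (168 CPM) in ES and 3309 reads (571 CPM) in control at 11 DIV, and 593 reads (74.3 CPM) in ES and 3282 reads (476 CPM) in control at 19 DIV. Both ES libraries lay below both control libraries. The ratio of ES to control was 0.295 (0.0820 to 0.855) at 11 DIV and 0.156 (0.0237 to 0.605) at 19 DIV, and only the second passed the spread-adjusted rule.

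Nde1 went the other way on both days. It encodes a dynein regulator of the centrosome and kinetochore that dividing neural progenitors need (chromosome 16, 14163275 to 14192928). Nde1 had 2400 reads (405 CPM) in ES and 626 reads (108 CPM) in control at 11 DIV, and 4257 reads (533 CPM) in ES and 1200 reads (174 CPM) in control at 19 DIV. Both ES libraries lay above both control libraries, with ratios of 3.75 (1.004 to 20.7) and 3.06 (1.11 to 10.4). Neither ratio passed the spread-adjusted rule at its 99% level. Overlap with exons of other genes was searched only in the last 500 annotated bases of each member. Reads of a gene that ends beyond Nde1 would not be found this way, so their part in the Nde1 counts was not tested.

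In the edgeR quasi-likelihood test over all 4 libraries, with ES and day as additive factors and 1 residual degree of freedom, Zwint had the lowest p for ES of 10050 genes tested (log2 fold -2.22, Benjamini-Hochberg adjusted p = 1) and Nde1 stood at rank 6 (log2 fold 1.76, adjusted p = 1). No gene passed an adjusted p of 0.05 in this test (0% higher and 0% lower). At an unadjusted p under 0.05 there were 109 genes (0.408% of all higher and 0.677% lower in ES), 3 of them members: Nde1 higher, Zwint and Tpx2 lower. Members were chosen with earlier results of these data known, so their ranks and this count are not independent support. DESeq2 with the same design called 379 of the 10014 genes to which it gave an adjusted p (1.55% higher and 2.24% lower), among them Zwint (adjusted p = 1.72e-05), Nde1 (2.06e-05), Tpx2 (4.94e-05) and Cdt1 (0.0228), and limma-voom called 0, with adjusted p of 0.382 for Zwint and 0.497 for Nde1 and 566 genes at an unadjusted p under 0.05.

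Marker sums of neurons and of smooth muscle and mural cells were set beside Zwint and Nde1. The 12 neuron markers, led by Tac1 and Prph, summed to 6380 CPM in ES and 4448 CPM in control at 11 DIV (5 higher and 0 lower of 12 by the size rule, all genes 28.9% and 29.6%) and to 2292 CPM in ES and 6117 CPM in control at 19 DIV (0 higher and 9 lower of 12, all genes 29.4% and 31.3%). Zwint was low in ES on both days, and the neuron sum was high in ES on the first and low on the second. The ratios of 19 to 11 DIV were 0.441 for Zwint and 0.359 for the neuron sum in ES cultures. In control cultures they were 0.834 and 1.375. The 6 smooth muscle and mural markers, led by Acta2 and Cspg4, summed to 326 CPM in ES and 133 CPM in control at 11 DIV and to 387 CPM in ES and 146 CPM in control at 19 DIV, on the same side as Nde1 on both days (ratios 2.45, 0.671 to 11.5, and 2.65, 0.843 to 10.6). Their defining marker Myh11 had 0 reads in every library, and whether its reads were counted on another row was not tested. The part of these cells in the results was not tested.

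**Figure D3:**
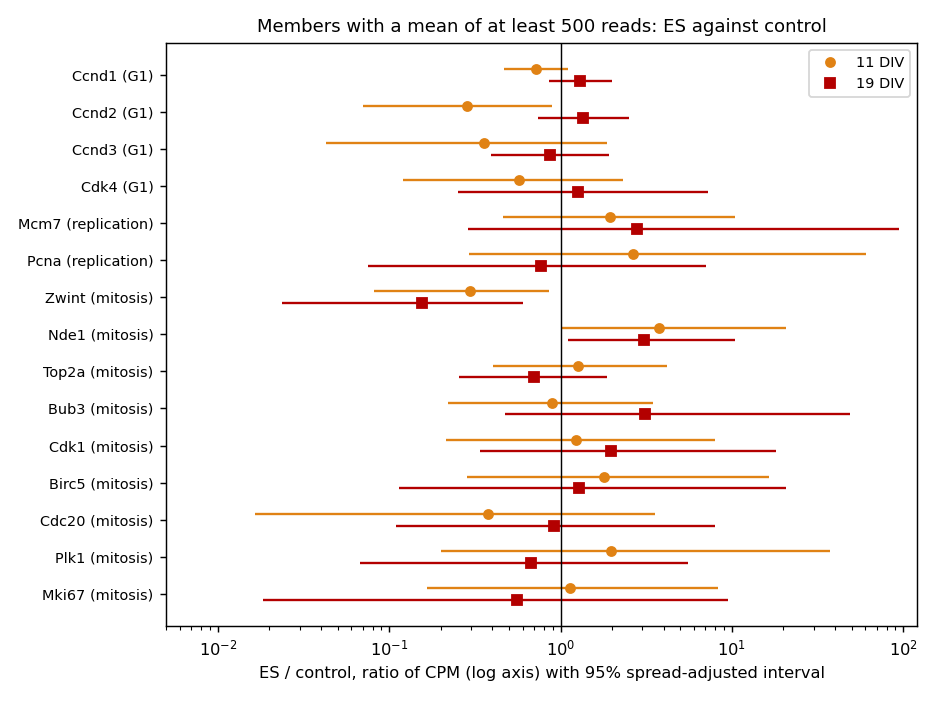
Ratio of CPM in ES over control (log axis) at 11 DIV (circles) and 19 DIV (squares) for the 15 members averaging 500 reads or more, with 95% spread-adjusted intervals as lines. Zwint lies below 1 and Nde1 above 1 on both days with intervals that leave out 1, and Ccnd2 lies below 1 at 11 DIV only.

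D-type cyclins start the cycle by activating Cdk4, and they supplied most of the G1 sum. Ccnd1 (chromosome 7, 144929931 to 144939925) had 1433 CPM in ES and 1984 CPM in control at 11 DIV, and 1744 CPM in ES and 1340 CPM in control at 19 DIV. Its ratio was 0.722 (0.470 to 1.10) at 11 DIV and 1.302 (0.856 to 2.001) at 19 DIV, so both intervals included equality. Ccnd2 (chromosome 6, 127125162 to 127152193) had 146 CPM in ES and 509.9 CPM in control at 11 DIV, and 901 CPM in ES and 670.5 CPM in control at 19 DIV. The ES library at 11 DIV stood below the other 3, with a ratio to control of 0.286 (0.0706 to 0.894) at 11 DIV and of 1.34 (0.739 to 2.501) at 19 DIV. Ccnd2 was 6.19-fold higher at 19 than at 11 DIV in ES cultures (2.004 to 28.5), the call that passed the spread-adjusted rule, and 1.31-fold higher in control cultures (0.622 to 2.88).

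Ccnd3 (chromosome 17, 47505051 to 47599691) lay higher at 19 DIV than at 11 DIV in both treatments. It had 3478 reads (435.5 CPM) at 19 DIV and 474 reads (80.01 CPM) at 11 DIV in ES cultures, and 3464 reads (502.5 CPM) at 19 DIV and 1293 reads (223 CPM) at 11 DIV in control cultures. The ratio of 19 to 11 DIV was 5.44 (1.19 to 56.9) in ES and 2.25 (0.810 to 7.34) in control. In the additive edgeR test Ccnd3 had a log2 fold of 1.81 for day (adjusted p = 1) and Ccnd2 one of 1.51 (adjusted p = 1). No gene passed for day with edgeR (0% in each direction), 204 had an unadjusted p under 0.05 (1.03% of all higher and 0.995% lower at 19 DIV; of the members Ccnd3 and Ccnd2, both higher), and limma-voom called 0 as well, with 702 genes at an unadjusted p under 0.05. DESeq2 called 682 of 10014 genes for day (3.49% higher and 3.33% lower), with Ccnd3 (adjusted p = 0.000572) higher and Mcm7 (0.0498) lower among the members.

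The counts of Ccnd3 may include reads of its neighbour. In GENCODE M21 the last 500 bases of Ccnd3 overlap by 361 bases with exons of Bysl, a ribosome assembly factor on the opposite strand, and whether counting used strand is not given in the sources used here. Bysl had 3803 reads at 19 DIV and 985 at 11 DIV in ES cultures, and 3416 at 19 DIV and 1291 at 11 DIV in control cultures, so it was high and low in the same libraries as Ccnd3. The counts of Ccnd3 and Bysl were close in every library but ES at 11 DIV, where Ccnd3 had 474 reads and Bysl 985. Ccne2 overlaps Ints8, an Integrator subunit, by 408 bases in the same way, and both had their lowest count in control at 19 DIV (14 reads for Ccne2 and 21 for Ints8). Ccnd1 overlaps Oraov1 over the whole 500 bases, where Oraov1 had 29 to 423 reads. Without Ccnd3 and Ccne2 the G1 sum lay lower in ES at 11 DIV, at a ratio of 0.621 (0.427 to 0.897). That sum keeps Ccnd1 and Cdk4, whose last 500 bases are wholly overlapped, so it cannot show the G1 ratio free of neighbour reads.

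**Figure D4:**
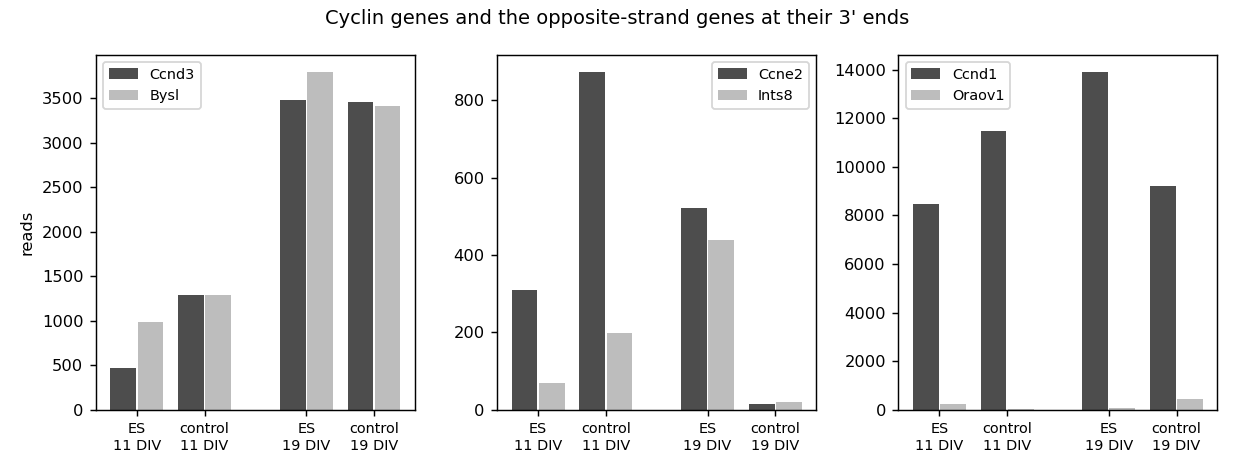
Reads of Ccnd3, Ccne2 and Ccnd1 (dark bars) and of the opposite-strand genes that share their 3′ ends (light bars), 1 library per pair of bars. Bysl lies between 985 and 3803 reads and is lower at 11 DIV than at 19 DIV like Ccnd3, whereas Oraov1 stays at 423 reads or fewer.

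Cdk4, the partner kinase of the D cyclins, had 138 CPM in ES and 241 CPM in control at 11 DIV, and 144 CPM in ES and 115 CPM in control at 19 DIV. Control at 11 DIV was highest, and the ES to control ratios of 0.574 (0.121 to 2.31) and 1.26 (0.253 to 7.30) included equality. Cdk4 also shares its 3′ end with an opposite-strand gene, Tspan31, which had 106 to 792 reads. Shorter opposite-strand overlaps were found for Ccna2 with Exosc9 (147 bases, 1 to 384 reads of Exosc9), Mcm7 with Cops6 (64 bases, 335 to 1234 reads) and Cdc20 with Elovl1 (53 bases, 791 to 1828 reads). E-type cyclins drive entry into S phase. Ccne1 had 225 reads in ES against 238 in control at 11 DIV, and 46 in ES and 0 in control at 19 DIV, so both libraries of 19 DIV lay below both of 11 DIV. Ccne2 had 309 reads in ES against 874 in control at 11 DIV, and 521 in ES and 14 in control at 19 DIV. Cdk2, their kinase, had 10 reads in ES against 295 in control at 11 DIV, and 107 in ES and 182 in control at 19 DIV. The spread-adjusted rule called neither E cyclin and not Cdk2 in any of the 4 comparisons.

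All 7 G1 genes had a log2 difference below 0 for ES minus control at 11 DIV (median -1.48), and by the size rule 4 of them, Cdk2, Ccnd2, Ccnd3 and Ccne2, were lower and 0 higher, against 29.6% and 28.9% of all genes. With scaling by total counts Ccne1 turned to a ratio of 1.01. At 19 DIV, 5 lay above 0 and 2 below (median 0.38), with 1 higher and 0 lower of 6 tested, against 29.4% and 31.3% of all genes. The medians over all genes were 0 on both days.

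**Figure D5:**
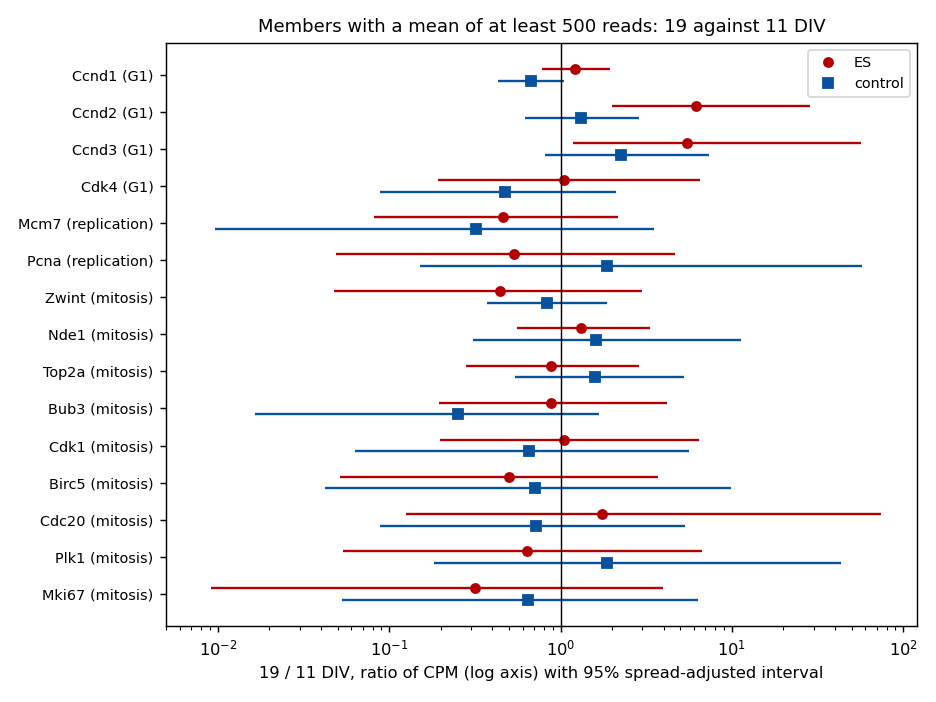
Ratio of CPM at 19 DIV over 11 DIV (log axis) in ES (circles) and control cultures (squares) for the 15 members averaging 500 reads or more, with 95% spread-adjusted intervals as lines. In ES cultures Ccnd2 and Ccnd3 lie above 1 with intervals that leave out 1, and in control cultures the interval of every gene shown includes 1.

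The helicase subunits Mcm2 to Mcm7, which form the ring that unwinds DNA, did not share a direction. Mcm7, the most abundant, had 238 CPM in ES and 123 CPM in control at 11 DIV, and 109 CPM in ES and 39.2 CPM in control at 19 DIV. Its ES to control ratios were 1.94 (0.461 to 10.4) and 2.79 (0.287 to 94.0), and both libraries of 19 DIV lay below both of 11 DIV. Mcm2 had 374 reads in ES against 67 in control at 11 DIV, and 631 in ES and 207 in control at 19 DIV, higher in both ES libraries. Mcm3 had 503 reads in ES against 382 in control at 11 DIV, and 2 in ES and 677 in control at 19 DIV. Mcm4 had 20 in ES and 260 in control at 11 DIV, and 480 in ES and 281 in control at 19 DIV. Subunits of 1 complex were thus near absent in different libraries. Mcm5 and Mcm6 ranged from 20 to 277 and from 84 to 449 reads. Summed, the 6 subunits had 436 CPM in ES and 308 CPM in control at 11 DIV (ratio 1.42, 0.547 to 3.86), and 308 CPM in ES and 261 CPM in control at 19 DIV (1.18, 0.421 to 3.48).

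The loading factors that place this ring on DNA, Cdc6 and Cdt1, had reads mainly in control at 19 DIV. Cdc6 had 0 reads in ES against 5 in control at 11 DIV, and 1 in ES and 271 in control at 19 DIV. Cdt1 had 0 in ES and 66 in control at 11 DIV, and 0 in ES and 371 in control at 19 DIV. Against a count of 3, Cdt1 was at least 22.5-fold lower in ES at 11 DIV and at least 143-fold lower at 19 DIV, bounds that hold only if reads are independent. Both genes were lower in both ES libraries than in both controls.

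Pcna, the sliding clamp of DNA polymerase, had 759 reads in ES against 281 in control at 11 DIV, and 551 in ES and 621 in control at 19 DIV. The ribonucleotide reductase chains, which make deoxynucleotides, lay higher in both ES libraries. Rrm1 had 711 reads in ES against 165 in control at 11 DIV (ratio 4.21, 0.324 to 482), and 592 in ES and 308 in control at 19 DIV (1.66, 0.131 to 44.9). Rrm2 had 216 and 121 reads at 11 DIV and 220 and 0 reads at 19 DIV in ES and control. Tyms, thymidylate synthase, had 0 reads in ES against 70 in control at 11 DIV, and 447 in ES and 0 in control at 19 DIV. By the size rule 3 replication genes were higher and 3 lower in ES at 11 DIV among 11, and 5 higher and 4 lower at 19 DIV among 12, near the shares over all genes (28.9% and 29.6% at 11 DIV, 29.4% and 31.3% at 19 DIV). Their median log2 differences were -0.02 and 0.64. No replication gene passed the spread-adjusted rule in any of the 4 comparisons.

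Mitotic entry is driven by Cdk1 with cyclins A2, B1 and B2. Cdk1 had 141 CPM in ES and 115 CPM in control at 11 DIV, and 148 CPM in ES and 75.0 CPM in control at 19 DIV, with ratios of 1.23 (0.214 to 7.92) and 1.97 (0.338 to 18.1). Both ES libraries were above both controls, with intervals that included equality. Ccna2 had 409 reads in ES against 422 in control at 11 DIV, and 453 in ES and 283 in control at 19 DIV, and its ratio at 11 DIV was 0.948, or 1.04 with scaling by total counts. Ccnb1 had 404 reads in ES against 33 in control at 11 DIV, and 674 in ES and 437 in control at 19 DIV, so control at 11 DIV was the low library. Ccnb2 had 149 in ES and 126 in control at 11 DIV, and 231 in ES and 555 in control at 19 DIV, the last being the high one. The 4 genes together summed to 303.5 CPM in ES and 215 CPM in control at 11 DIV (1.41, 0.442 to 4.87), and to 318 CPM and 260.0 CPM at 19 DIV (1.22, 0.440 to 3.59).

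The Polo and Aurora kinases organise the spindle, and Birc5 is the survivin subunit of the Aurora B complex. Plk1 had 634 reads in ES against 315 in control at 11 DIV, and 545 in ES and 702 in control at 19 DIV. Birc5 had 878 reads in ES against 476 in control at 11 DIV, and 592 in ES and 400 in control at 19 DIV. Aurka had 271 reads in ES against 0 in control at 11 DIV, and 1 in ES and 9 in control at 19 DIV. Aurkb had 121 and 0 reads at 11 DIV and 143 and 65 reads at 19 DIV in ES and control. At 11 DIV these 4 genes all had more reads in ES, summing to 321 CPM against 137 CPM in control, a ratio of 2.35 whose interval (0.649 to 10.9) included equality. At 19 DIV the sums were 160 CPM in ES and 171 CPM in control.

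The spindle checkpoint genes hold cells in metaphase until chromosomes are attached. Bub3, the most abundant of them, had 187 CPM in ES and 211 CPM in control at 11 DIV, and 164 CPM in ES and 53.0 CPM in control at 19 DIV, where its ratio was 3.10 (0.472 to 48.8). Bub1 had 10 reads in ES against 259 in control at 11 DIV and 0 reads in both libraries of 19 DIV. The row Pyroxd2 had counts within 5% of those of Bub1 in every library, so the Bub1 values are uncertain. Bub1b had 274 reads in ES against 44 in control at 11 DIV, and 0 in ES and 67 in control at 19 DIV. Mad2l1 had 321 reads in ES against 1 in control at 11 DIV, and 37 in ES and 0 in control at 19 DIV. Cdc20, which activates the anaphase-promoting complex once the checkpoint is met, had 282 reads in ES against 726 in control at 11 DIV, and 659 in ES and 620 in control at 19 DIV. Ube2c, the ubiquitin-conjugating enzyme of that complex, had 401 and 382 reads at 11 DIV and 88 and 297 reads at 19 DIV in ES and control.

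Tpx2, a spindle assembly factor that activates Aurora A (chromosome 2, 152847964 to 152895321), was near 0 in both ES libraries. It had 1 read in ES and 214 in control at 11 DIV, and 3 in ES and 639 in control at 19 DIV, ratios of 0.00457 (counting interval 0.000115 to 0.0257) and 0.00405 (0.000834 to 0.0119). The spread-adjusted upper ends were 34.5 and 2.51, so neither ratio passed the spread-adjusted rule. In the additive edgeR test Tpx2 had a log2 fold of -7.76 for ES (adjusted p = 1). Across ES and control, 9 members lay higher and 7 lower in both ES libraries than in both controls among the 43, against 13.6% and 14.5% of all genes. The higher ones were Cdk1, Ccnb1, Mcm2, Rrm1, Rrm2, Mad2l1, Nde1, Aurkb and Kif11, and the lower ones Cdk2, Cdc20, Cdc6, Cdt1, Mcm5, Zwint and Tpx2. By the size rule on both days, 2 were higher (Mcm2 and Nde1) and 3 lower (Cdt1, Zwint and Tpx2) of 37 tested on both days, against 8.09% and 8.65% of all genes. Bub1b was higher at 11 DIV and lower at 19 DIV (all genes 9.68%), and Ccne2, Tyms and Kif23 were lower at 11 DIV and higher at 19 DIV (all genes 8.9%).

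The spindle motors Kif11 and Kif23 were among the least abundant members. Kif11 had 82 reads in ES against 1 in control at 11 DIV, and 20 in ES and 1 in control at 19 DIV. Kif23 had 0 and 58 reads at 11 DIV and 240 and 0 reads at 19 DIV in ES and control. Of the centromere genes, Cenpa, the centromeric histone, had 332 reads at 19 DIV and 67 at 11 DIV in ES cultures, and 152 at 19 DIV and 62 at 11 DIV in control cultures. Cenpe, a kinetochore motor, had 404 at 19 DIV and 102 at 11 DIV in ES cultures, and 577 at 19 DIV and 68 at 11 DIV in control cultures. With Ccnd3 they were the 3 members of 36 tested that were higher at 19 DIV in both treatments by the size rule (all genes 9.84%), while Ccne1 and Mcm7 were lower in both (all genes 9.14%). Tyms and Kif23 were lower at 19 DIV in control and higher in ES cultures (all genes 8.7%), and 0 members showed the reverse (all genes 8.89%).

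Stmn1, a microtubule-destabilising protein abundant in dividing cells and in young neurons, had 156 CPM in ES and 78.5 CPM in control at 11 DIV, and 16.2 CPM in ES and 39.5 CPM in control at 19 DIV. Stmn1 and the neuron marker sum were both highest in ES at 11 DIV and lowest in ES at 19 DIV. In control cultures they went opposite ways, with ratios of 19 to 11 DIV of 0.502 for Stmn1 and 1.375 for the neuron sum. Mitosis genes had 7 higher and 5 lower members of 24 in ES at 11 DIV (median log2 difference 0.32; all genes 28.9% and 29.6%) and 3 higher and 6 lower of 20 at 19 DIV (median -0.06; all genes 29.4% and 31.3%). For 19 against 11 DIV, 3 were higher and 8 lower of 22 in ES cultures (all genes 30.9% and 30.5%), and 6 higher and 3 lower of 21 in control cultures (30.9% and 29.8%). In all, 5 members were higher at 19 DIV in both treatments than at 11 DIV in either (Ccnb2, Ccnd2, Ccnd3, Cenpa and Cenpe) and 9 were lower (Mki67, Ccna2, Ccne1, Mcm7, Bub1, Bub3, Birc5, Ube2c and Stmn1), against 15.6% and 16.1% of all genes.

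Other genes of the pathway gave sums whose intervals included equality between ES and control, apart from the Cdk inhibitors at 11 DIV. The 44 other replication genes, led by Lig1, a DNA ligase (95.7 to 186 CPM over the libraries), and Rfc1, a clamp loader subunit (112 to 148 CPM), summed to 1527 CPM in ES and 1344 CPM in control at 11 DIV and to 1415 CPM and 1363 CPM at 19 DIV, with 12 higher and 8 lower of 35 and 10 higher and 13 lower of 38 by the size rule. The 54 other mitosis genes in the tables, led by Cks1b, a Cdk subunit (151 to 198 CPM), and Smc4, a condensin subunit (104 to 303 CPM), summed to 1965 CPM in ES and 2137 CPM in control at 11 DIV and to 2103 CPM and 2199 CPM at 19 DIV, with 15 higher and 19 lower of 47 and 9 higher and 10 lower of 41. The shares over all genes were 28.9% and 29.6% at 11 DIV and 29.4% and 31.3% at 19 DIV. None of these replication and mitosis genes passed the spread-adjusted rule in any comparison. The 15 anaphase-promoting complex genes, led by Anapc11 (162 to 356 CPM) and Anapc5 (109 to 256 CPM), summed to 1016 CPM in ES and 1019 CPM in control at 11 DIV and to 903 CPM and 791 CPM at 19 DIV. The 19 E2F, retinoblastoma and MuvB regulators, led by E2f7, a repressor (16.7 to 175 CPM), and Rbl2 (44.7 to 93.9 CPM), summed to 633.5 CPM in ES and 482 CPM in control at 11 DIV and to 648 CPM and 528.5 CPM at 19 DIV. No gene of these lists passed the spread-adjusted rule either.

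The Cdk inhibitors, which brake the cycle, were lower in ES at 11 DIV as a sum, at 1253 CPM against 2160 CPM in control (0.580, 0.372 to 0.892), with 2 of 7 higher and 4 lower by the size rule (all genes 28.9% and 29.6%). Without Cdkn1a the sum was 516 CPM in ES and 534 CPM in control, a ratio of 0.966 (0.437 to 2.13), so the difference in the sum rested on that gene. Cdkn1a (p21), the target of p53, had 737 CPM in ES and 1626 CPM in control at 11 DIV and passed the spread-adjusted rule (0.453, 0.257 to 0.776). At 19 DIV it had 510.2 CPM in ES and 474 CPM in control, and in control cultures it was lower at 19 than at 11 DIV (0.292, 0.148 to 0.544). Cdkn1b (p27) had 253 CPM in ES and 177 CPM in control at 11 DIV, and 221 CPM in ES and 509 CPM in control at 19 DIV, with intervals that included equality on both days.

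Markers of the cells that can divide also differed between the libraries. The fibroblast sum lay above control on both days. By the size rule 1 of 7 markers was higher and 0 lower in ES at 11 DIV (all genes 28.9% and 29.6%). At 19 DIV 0 were higher and 0 lower (all genes 29.4% and 31.3%). The replication sum also lay above control on both days, but at 19 DIV not without Mcm7 (ratio 0.946). Between 19 and 11 DIV in ES cultures the fibroblast ratio was 1.94 and the replication ratio 0.742. The 7 fibroblast markers, led by Col1a2 and Col1a1, summed to 6712 CPM in ES and 4946 CPM in control at 11 DIV and to 13030 CPM and 9347 CPM at 19 DIV. The 4 satellite glia markers, led by Apoe and Glul, summed to 1581 CPM in ES and 789.9 CPM in control at 11 DIV and to 1184 CPM and 1746 CPM at 19 DIV, and without Apoe to 71.7 CPM and 116.0 CPM at 11 DIV and to 149 CPM and 271 CPM at 19 DIV, so the side of the sum at 11 DIV rested on Apoe. The 6 macrophage markers, led by Laptm5 and Csf1r, summed to 56.3 to 115 CPM with 3 at 0 in each library, and the 5 endothelial markers, led by Emcn and Cdh5, to 25.2 to 48.3 CPM with 2 to 4 at 0. The parts of these cell types in the cell cycle values were not tested.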

How the data were processed

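The authors deposited raw read counts per gene symbol, whole numbers in 1 table per library, per the file headers. Per the labels' protocols, a QuantSeq 3′ kit was used. Bowtie2, bedtools and build mm10 are named in the submitters' processing notes; their versions, strand use and duplicate handling are not given there. Every row named a gene. Counts were scaled by TMM (edgeR 4.0.16, R 4.3.3) over 4 libraries and given as CPM; log2 differences used a prior count of 2. Ratios of 2 libraries had Clopper-Pearson 95% intervals. The spread was the median squared difference over genes averaging 500 to 3000 reads, relative to counting error. Plain counting intervals and the limit that a count of 0 allows (3 reads, 0.376 to 0.518 CPM) cover counting error only; spread-adjusted intervals use counts divided by the spread. All genes kept by filterByExpr (10050) entered edgeR's quasi-likelihood test with ES and day additive, Benjamini-Hochberg threshold 0.05; 41 of 43 members were tested. Alternatives were voom (limma 3.58.1), DESeq2 1.42.0, and other scalings, read minimums and sums. Positions and exon overlaps came from GENCODE M21 (GRCm38, the assembly of mm10), promoters from RefSeq (GRCm38.p6). Of the members, those with at least 200 reads in 1 library were given in every library or by range; of each other list, the 2 genes highest in mean CPM were named, and of pathway lists also any past the spread-adjusted rule. Members, lists, groups and rules were chosen with earlier results of these data known. Intervals used scipy 1.17.1 under Python 3.11.15. One list of glial markers is not reported here.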

Additional observations from a re-analysis of the deposited data

Results flagged for a closer look

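Some results lay on opposite sides of control on the 2 days, with 1 library per treatment and day, and the difference between days was not tested. Ccne2 was at 0.346 times control in ES at 11 DIV and at 32.1 times control at 19 DIV, and its 3′ end is shared with Ints8. Tyms was at least 23.9-fold lower in ES at 11 DIV and at least 129-fold higher at 19 DIV, with counts of 0 put at 3 reads. Bub1b was at 6.09 times control at 11 DIV and at least 25.9-fold lower at 19 DIV. Kif23 was at least 19.8-fold lower at 11 DIV and at least 69.1-fold higher at 19 DIV. The bounds from counts of 0 hold only if reads are independent, and reads came in clumps here. The spread-adjusted intervals of these 4 genes included equality on both days. The summed G1 genes were at 0.590 times control at 11 DIV and 1.25 at 19 DIV, and the summed mitosis genes at 1.12 and 0.914. Among all genes tested on both days, 9.68% were higher in ES at 11 DIV and lower at 19 DIV by the size rule and 8.9% the reverse, against 1 and 3 of 37 cell cycle genes.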

How the results depend on the processing

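With size factors of DESeq2 or total counts in place of TMM, each count of called cell cycle genes stayed within 1.5 times its value and each sum within its interval; Ccna2 and Ccne1 turned direction at 11 DIV (0.948 and 0.925 with TMM, 1.04 and 1.01 with total counts), since scaling by total counts moved all log2 differences by 0.13 where control at 11 DIV was compared. With at least 500 reads in the higher library, the counts higher and lower were 3 and 5 (ES against control, 11 DIV), 5 and 4 (19 DIV), 4 and 4 (19 against 11 DIV in control) and 2 and 5 (in ES); under the spread-adjusted rule they were 0 and 0, 0 and 1, 0 and 0, and 1 and 0. DESeq2 called 1 member higher and 3 lower for ES and 1 higher and 1 lower for day, where edgeR and limma called 0. Without Ccnd1 the G1 ratio was 0.375 for ES against control at 11 DIV and 3.43 for 19 against 11 DIV in ES. Sums for G1 genes, the mitosis sum without Nde1 and Zwint, and the marker and inhibitor sums without Apoe or Cdkn1a were chosen after seeing the data. The cause was not tested. No paired analysis was possible because each group was 1 library with no replicate number; the additive fit compares ES with control within days. Leaving out a library leaves that fit no residual degree of freedom, and single-factor fits without a library were not run.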
